A study of Homo sapiens with 12 samples.

Results

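The contrast described here is the difference between the effects of a pair of point substitutions in the enzyme PHGDH on the transcriptome of SW1990 cells. It is the S371A effect (S371A against its own wild-type group, WT-1) minus the S55A effect (S55A against its own wild-type group, WT-2), both as log2 fold changes. All 12 libraries of the series enter, 3 in each of 4 groups, joined by gene identifier over the 50356 genes listed in both deposited count tables. Of these genes, 16666 had enough counts to be tested. The comparison asks which transcripts answered to one residue and not to the other, or moved in opposite directions.

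SW1990 is a human line derived from a spleen metastasis of a pancreatic adenocarcinoma. Every library, mutant and wild type alike, came from cells kept for 24 h in medium without glucose, so nothing here says how the cells behave when fed. Per the labels, the cells carried rPHGDH with the serine-to-alanine substitution S371A, WT rPHGDH (WT-1), rPHGDH with S55A, or WT rPHGDH (WT-2). The sources used here do not give the meaning of the prefix, the fate of the cells' own PHGDH, the number of clones behind each genotype, or whether replicates were separate cultures. The p-values therefore rest on the spread between libraries of a group, and that spread may be only technical. S371A and WT-1 share a deposited table, S55A and WT-2 share the other, and no library links them: a difference between mutants and a difference between experiments cannot be told apart in any value below.

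PHGDH oxidises phosphoglycerate, an intermediate of glycolysis, and so diverts carbon into the synthesis of serine, glycine and the folate-bound units used to make nucleotides. Pancreatic cancer cells can depend on this route or on serine taken up from the medium. A serine replaced by alanine lacks the hydroxyl group that a kinase can phosphorylate, which is the usual purpose of such a substitution. The mutated residues lie far apart in the gene, and both are shown because they define the groups. In the 533-codon transcript ENST00000641023.1 of GENCODE 29, the codon changed in S371A lies in exon 10 (chr1:119741799-119741801, GRCh38, plus strand) and that changed in S55A in exon 2 (chr1:119721194-119721196). Each line gives the reference codon in capitals with the coding bases on either side. These are letters of the reference gene, not of the expressed construct.

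PHGDH codon of S371A: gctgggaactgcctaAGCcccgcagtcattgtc

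PHGDH codon of S55A: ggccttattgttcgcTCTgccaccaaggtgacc

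PHGDH transcript itself was lower with both substitutions. It stood at 194, 179.8 and 219 CPM in S371A against 459, 484 and 445 in WT-1, and 372, 367 and 354 in S55A against 753, 721 and 749 in WT-2 (CPM, counts scaled to a common library size with TMM factors). Neither mutant group overlapped its wild type. The effects were -1.23 ± 0.07 in S371A and -1.02 ± 0.07 in S55A (SE), and their difference of -0.20 ± 0.09 was not called by the edgeR quasi-likelihood test (adjusted p = 0.185; 95% interval -0.407 to -0.0021). Without S371A replicate 3 it was called, with an adjusted p of 0.039. The gene's coordinates differ between the tables, and the counts do not separate expressed from resident PHGDH. Both mutants thus carried less PHGDH transcript than their wild types, and the part of that gap in any result was not tested.

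Of the 16666 genes, 2087 (12.5%) were called for the difference at a Benjamini-Hochberg adjusted p of 0.05. In 1071 (6.43%) the S371A effect was above the S55A effect and in 1016 (6.10%) it was below, and 499 differed by at least 1 on the log2 scale. Against its own wild type, S371A had 1080 genes higher (6.48%) and 788 lower (4.73%), while S55A had 1923 higher (11.5%) and 1688 lower (10.1%). These counts rest on a spread pooled over both tables. When each effect was fitted within its own table, 2037 genes were called for S371A and 2496 for S55A. Genes called for both effects numbered 795, of which 600 moved the same way and 195 opposite ways. Across all tested genes the effects correlated weakly (Pearson r = 0.13, Spearman rho = 0.16), a description of genes fitted in a single model and not of independent points. The called genes were read in 3 classes that can overlap. In 195 both effects were called with opposite signs. In 375 the S371A effect was called and the 95% interval of the S55A effect lay within 0.5 of 0, a class called S371A-only below, although 9 of its members also passed in S55A in the same direction. The S55A-only class, defined in the same way, held 1000 genes, 31 of which also passed in S371A in the same direction. Small effects on either side of 0 can meet more than 1 definition: 61 opposite genes were also S371A-only, 81 were also S55A-only, and 53 genes met both of the bounded definitions. A further 660 called genes met none of the 3. The call count ranged from 1407 to 2257 when single libraries were left out. It rose above 2087 only without S55A replicate 3, and each class was also largest without that library. Without S371A replicate 2, S371A replicate 3 or any of the WT-1 libraries, the opposite class held 96 to 116 genes and the S371A-only class 182 to 208. Without WT-2 replicate 1 the S371A-only class held 242, and without WT-1 replicate 1 or 3 the S55A-only class held 661 or 665.

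**Figure D1:**
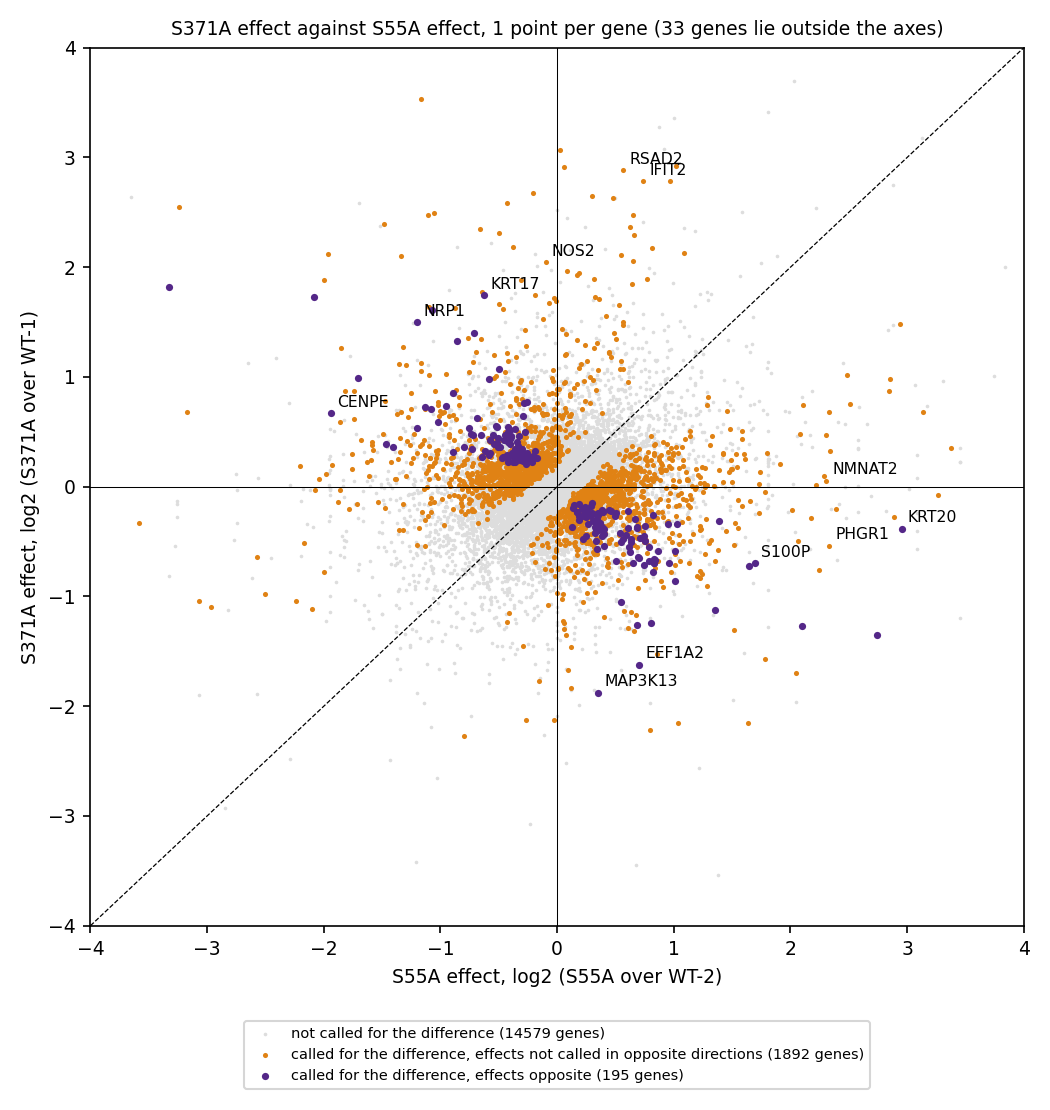
Each point is a gene, with the log2 S371A effect over WT-1 on the vertical axis and the log2 S55A effect over WT-2 on the horizontal axis; the dashed line marks equal effects. The 195 opposite genes fill the upper left (higher in S371A, lower in S55A) and the lower right. NOS2 stands high near the vertical line of no S55A effect, and RSAD2 stands higher and to the right of that line. NMNAT2 lies far right near the horizontal line of no S371A effect.

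Because each mutant was read against its own wild type, a difference could come with unlike mutants, unlike wild types, or both. Among the 2034 called genes with the same coordinates in both tables, the mutant groups were further apart than the wild-type groups in 1187 and the wild-type groups were further apart in 847. The median gap, on log2 CPM with 0.5 added, was 0.40 between S371A and S55A and 0.30 between WT-1 and WT-2. These are levels set across tables whose gene lists differ, and they are given as description.

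Among the 195 genes with opposite effects were NRP1 and KRT17, higher in S371A and lower in S55A, and S100P, CD177 and EEF1A2, with the reverse. In all, 96 were higher in S371A and lower in S55A, and 99 were lower in S371A and higher in S55A; in 49 the smaller of the effects was at least 0.5. NRP1, the neuropilin co-receptor for semaphorins and VEGF, had 16.6, 14.4 and 16.3 CPM in S371A against 5.29, 5.99 and 5.41 in WT-1, and 3.2, 2.9 and 2.64 in S55A against 6.26, 7.33 and 6.53 in WT-2. All S371A libraries lay above WT-1 and all S55A libraries below WT-2, while the wild-type groups lay close together. Its effects were 1.501 ± 0.11 in S371A and -1.20 ± 0.12 in S55A, a difference of 2.70 ± 0.17 (SE; edgeR adjusted p = 3.67e-06). KRT17, a keratin of basal epithelium and of an aggressive form of pancreatic carcinoma, had 26.6, 27.3 and 31.5 CPM in S371A against 7.41, 10.3 and 7.77 in WT-1, and 2.17, 3.01 and 2.22 in S55A against 4.25, 3.33 and 3.81 in WT-2. The S371A libraries stood well above the rest, and the S55A libraries lay just below WT-2 at a low level, with an effect of -0.63 ± 0.18. The difference was 2.37 ± 0.24 (adjusted p = 0.00011).

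In the other direction, S100P, a calcium-binding protein abundant in pancreatic cancer, had 32.6, 31.1 and 31.1 CPM in S371A against 46.5, 51.7 and 55 in WT-1, and 48.7, 47.7 and 48 in S55A against 12.9, 16.3 and 15.4 in WT-2. The S371A libraries were all below WT-1 and the S55A libraries all above WT-2, and WT-1 lay above WT-2 by more than S55A lay above S371A. The difference was -2.39 ± 0.12 (adjusted p = 7.23e-07). CD177, a surface glycoprotein best known from neutrophils, had 29.2, 25.4 and 28.8 CPM in S371A against 44.5, 48.4 and 44.4 in WT-1, and 53.2, 54.8 and 50.02 in S55A against 16.3, 17.7 and 16.4 in WT-2. It was likewise lower in S371A than in WT-1 and higher in S55A than in WT-2, without overlap. Its difference was -2.37 ± 0.11 (adjusted p = 3.15e-07). Reads from 17.4% of its 50-base windows could also come from another gene, chiefly CD177P1. EEF1A2, a tissue-restricted translation elongation factor, had 7.47, 8.11 and 9.53 CPM in S371A against 24.7, 25.4 and 27.3 in WT-1, and 19.3, 18.9 and 15.5 in S55A against 10.4, 11.5 and 11.1 in WT-2. Its groups did not overlap in either experiment, and its effects were -1.62 ± 0.11 in S371A and 0.70 ± 0.11 in S55A. MAP3K13, a kinase upstream of JNK, fell in S371A (-1.88 ± 0.11) and rose in S55A (0.35 ± 0.10). It had 9.71, 8.17 and 7.71 CPM in S371A against 29.4, 33.9 and 30.6 in WT-1, and 23.8, 25 and 25.9 in S55A against 20.9, 17.6 and 19.9 in WT-2.

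The other opposite genes named by size included channels, enzymes and membrane-trafficking proteins. The ion channel KCNK5 (effects of -0.69 in S371A and 0.83 in S55A), the actin-bundling protein ESPN (-0.68 in S371A and 0.79 in S55A), the scramblase-family member ANO7 (-1.26 in S371A and 0.68 in S55A), the parvin PARVG (-0.71 in S371A and 0.74 in S55A) and the endosomal sorting subunit VPS37D (-0.78 in S371A and 0.82 in S55A) were lower in S371A and higher in S55A. CADPS, which primes secretory vesicles, went the other way (0.71 in S371A and -1.08 in S55A), as did UGT1A1, a glucuronosyltransferase (0.73 in S371A and -1.13 in S55A), whose sequence is partly shared within its locus (49.4% of windows, chiefly with UGT1A10). Among the opposite genes that average at least 5 CPM, the largest difference was that of ZNF664, a zinc finger gene, at 3.81 ± 0.55 (adjusted p = 0.0028). Its libraries scattered, with 581, 382 and 572 CPM in S371A against 148, 152 and 162 in WT-1, and 93.6, 91.1 and 269 in S55A against 622, 665 and 634 in WT-2. S371A replicate 2 and S55A replicate 3 stood apart from the other libraries of their groups, though the groups still did not overlap.

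**Figure D2:**
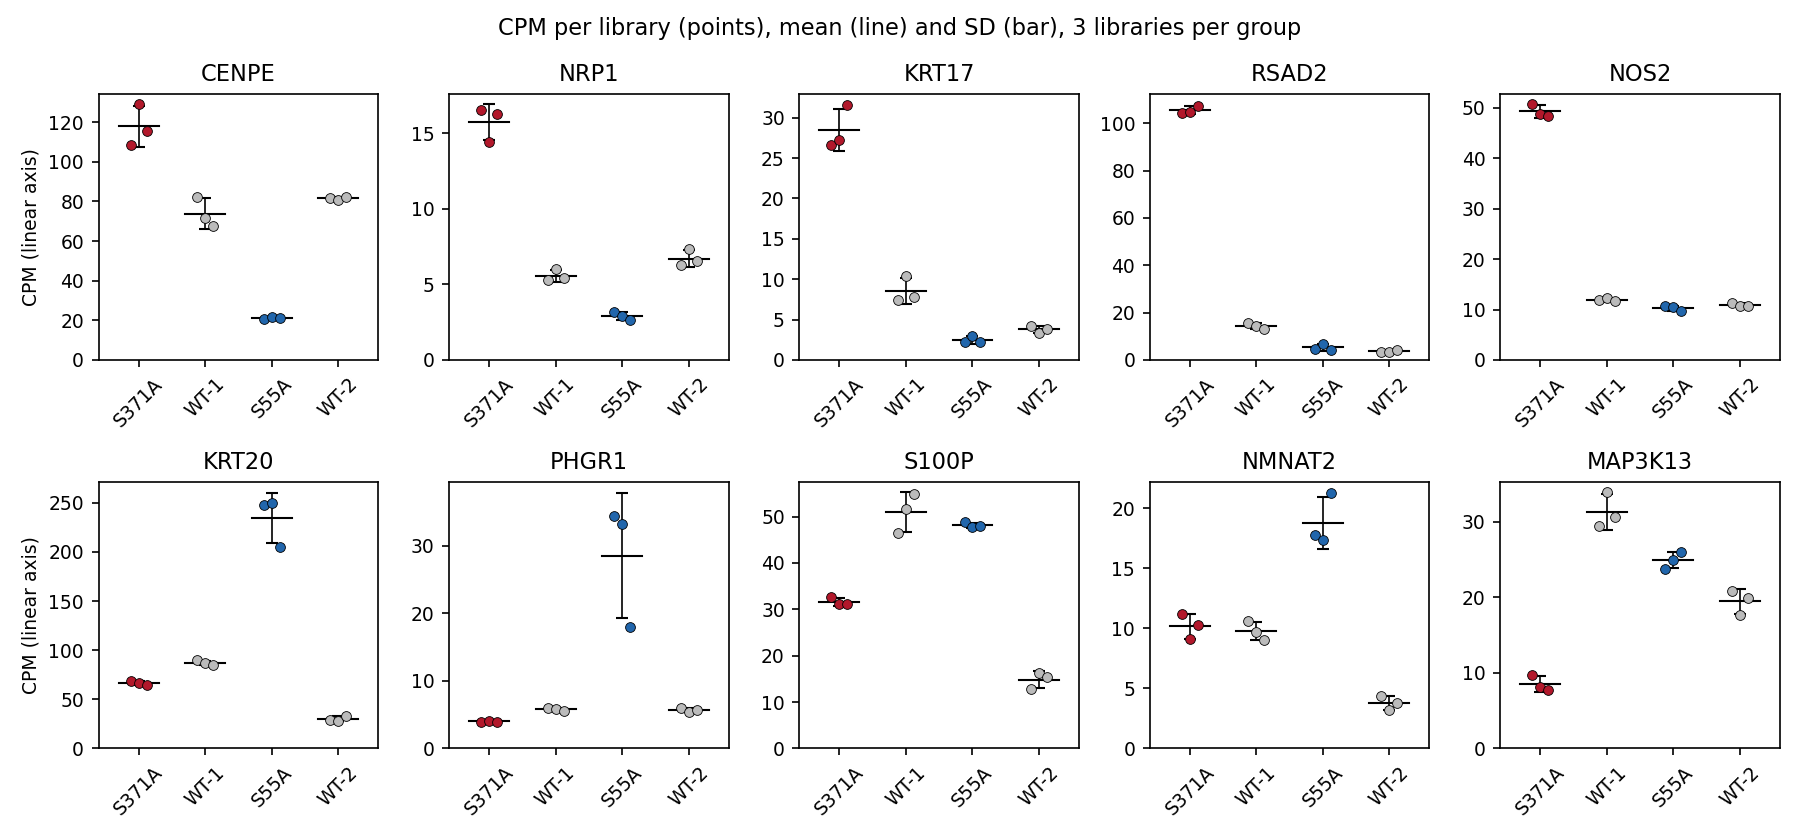
Each panel gives the CPM of 1 gene (vertical axis, linear, from 0) in every library, with S371A left of WT-1 and S55A left of WT-2; lines are means and bars SDs of 3 libraries. CENPE, NRP1 and KRT17 are above WT-1 in S371A and below WT-2 in S55A, KRT20 and S100P show the reverse, and NOS2 and NMNAT2 move with a single substitution.

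A set of genes moved with S371A while their S55A effect was held within narrow bounds. The S371A-only class had 213 genes higher and 162 lower, and 16 of them changed by at least 1. NOS2, the inducible nitric oxide synthase, had 50.8, 48.8 and 48.3 CPM in S371A against 11.8, 12.4 and 11.6 in WT-1, and 10.6, 10.4 and 9.61 in S55A against 11.3, 10.7 and 10.8 in WT-2. The S371A libraries stood far above the other 3 groups, which lay within a narrow range of each other. Its S371A effect was 2.05 ± 0.07, its S55A effect -0.10 ± 0.07 (95% interval -0.26 to 0.06), and the difference 2.14 ± 0.10 (adjusted p = 3.53e-07). NOCT, nocturnin, a phosphatase of NADPH, had 32.3, 32.2 and 29.6 CPM in S371A against 7.21, 9.05 and 7.87 in WT-1, and 10.8, 8.64 and 8.19 in S55A against 9.01, 7.47 and 9.56 in WT-2. The difference was 1.88 ± 0.19 (adjusted p = 0.000108). PHLDB2, a protein of the cell cortex, had 32.3, 32.8 and 32.1 CPM in S371A against 9.78, 10.03 and 9.69 in WT-1, and 9.13, 8.64 and 8.19 in S55A against 9.41, 8.14 and 8.89 in WT-2. It differed by 1.75 ± 0.12. In both genes the S371A libraries were again the only ones apart. HIP1R, an endocytic adaptor, rose by 1.43 ± 0.07 in S371A against 0.04 ± 0.07 in S55A, although its wild-type levels differed. It had 178, 166 and 162 CPM in S371A against 63.5, 65.5 and 58.3 in WT-1, and 37.9, 39.2 and 42.6 in S55A against 38.8, 37.3 and 40.4 in WT-2.

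JUN, EGFR, ERRFI1, TNFRSF12A and PHLDA1, genes of growth signalling, belonged to the same class. JUN, a subunit of the AP-1 transcription factor, had 82.3, 77.1 and 78.1 CPM in S371A against 40.5, 40.3 and 37.8 in WT-1, and 42.5, 44 and 43.9 in S55A against 36.4, 34.4 and 36.6 in WT-2. It was called in both mutants, but its rise of 1.002 ± 0.06 in S371A was larger than that of 0.28 ± 0.06 in S55A (difference 0.72 ± 0.08, adjusted p = 0.000199). The EGF receptor gene EGFR, whose coordinates differ between the tables, had 215, 224 and 231 CPM in S371A against 121, 114 and 115 in WT-1, and 83.8, 114 and 110.1 in S55A against 99.1, 83.4 and 90.8 in WT-2. Its effects were 0.93 ± 0.10 in S371A and 0.17 ± 0.10 in S55A (difference 0.76 ± 0.14, adjusted p = 0.00554). Its feedback inhibitor ERRFI1 followed (0.59 ± 0.06 in S371A and 0.11 ± 0.06 in S55A), as did TNFRSF12A, the receptor for TWEAK (1.12 ± 0.12 in S371A and 0.21 ± 0.12 in S55A), and PHLDA1, an early response gene (1.08 ± 0.09 in S371A and 0.18 ± 0.09 in S55A). Of the EGF family ligands, AREG and EREG moved in opposite directions in the mutants. AREG, amphiregulin, had 185, 194 and 189 CPM in S371A against 131, 132 and 128 in WT-1, and 136, 135 and 107 in S55A against 213, 207 and 219.7 in WT-2. EREG, epiregulin, had 699, 716 and 709 CPM in S371A against 504, 497 and 528 in WT-1, and 569, 540.0 and 414 in S55A against 806, 901 and 804 in WT-2. Both ligands were higher in S371A and lower in S55A, with differences of 1.29 ± 0.11 and 1.20 ± 0.14 (adjusted p = 3.7e-05 and 0.000254). Of 13 tested EGF receptors, ligands and regulators, EGFR, ERRFI1, AREG and EREG were called, all with a positive difference, which 6.43% of all genes had.

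Of 38 tested MAPK immediate early and feedback genes, 8 had a positive and 5 a negative difference. In this list 20 rose in S371A and 11 rose in S55A with none lower in either. Over all tested genes, 6.43% had a positive and 6.10% a negative difference, 6.48% were higher in S371A and 11.5% higher in S55A. The S371A effect was the higher one for the early growth response factors EGR3 (1.93 ± 0.21 in S371A and 0.17 ± 0.32 in S55A) and EGR1 (1.22 ± 0.12 in S371A and 0.44 ± 0.12 in S55A) and for the phosphatase genes DUSP1 (0.84 ± 0.12 in S371A and -0.07 ± 0.12 in S55A) and DUSP4 (0.66 ± 0.11 in S371A and -0.11 ± 0.12 in S55A). The S55A effect was the higher one for DUSP5 (0.43 ± 0.11 in S371A and 1.09 ± 0.12 in S55A), for the transcription factor gene KLF2 (0.03 ± 0.07 in S371A and 0.63 ± 0.07 in S55A) and for SPRED2, an inhibitor of RAS signalling (0.09 ± 0.08 in S371A and 0.65 ± 0.08 in S55A). Among 16 AP-1 subunits, JUN and FOSL1 (0.74 ± 0.17 in S371A and -0.40 ± 0.17 in S55A) were called, both positive; that is 12.5% of the list, the share called over all genes. The median S371A and S55A effects of that list were 0.49 and 0.27, against -0.0001 and -0.007 over all tested genes. Of 24 NF-kB feedback and cytokine genes, 4 were positive and 1 was negative. The positive ones were NOS2, SOD2 (0.05 ± 0.07 in S371A and -0.42 ± 0.07 in S55A), NFKBIZ, a nuclear regulator of NF-kB (0.90 ± 0.14 in S371A and -0.34 ± 0.14 in S55A), and TNFAIP3, an inhibitor of NF-kB signalling (1.29 ± 0.12 in S371A and 0.24 ± 0.13 in S55A), and the negative one was LCN2, an iron-trapping lipocalin (-0.38 ± 0.09 in S371A and 0.61 ± 0.09 in S55A). Of 32 YAP and matrix genes, 6 were positive, among them the matricellular gene CTGF (1.73 ± 0.19 in S371A and 0.32 ± 0.20 in S55A), the laminin chain LAMA3 (1.34 ± 0.16 in S371A and 0.17 ± 0.17 in S55A) and ZEB1, a repressor of epithelial genes (0.45 ± 0.20 in S371A and -0.92 ± 0.20 in S55A), and 5 negative, among them the matrix proteins THBS1 (0.51 ± 0.12 in S371A and 1.58 ± 0.12 in S55A) and TGFBI (0.16 ± 0.14 in S371A and 0.92 ± 0.15 in S55A), the second of which lost its call in 12 of the 22 alternative settings. None of 7 urokinase and plasminogen activation genes was called for the difference by edgeR, DESeq2 or limma-voom, and 1 of them, the urokinase receptor gene PLAUR (1.51 ± 0.13 in S371A and 1.05 ± 0.14 in S55A), had an unadjusted edgeR p under 0.05.

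Genes that fell in S371A within the same definition included ALPI, intestinal alkaline phosphatase. ALPI had 4.05, 3.39 and 3.2 CPM in S371A against 9.93, 9.97 and 9.37 in WT-1, and 6.45, 8.36 and 7.71 in S55A against 6.72, 5.77 and 8.22 in WT-2. PDGFRB, a receptor of stromal cells, had 9.5, 11.4 and 9.28 CPM in S371A against 22.1, 19.6 and 21.9 in WT-1, and 12.8, 12.4 and 10.4 in S55A against 15.2, 8.29 and 13.9 in WT-2. The difference (-0.995 ± 0.26, adjusted p = 0.029) lost its call when S371A replicate 1 or 3, WT-1 replicate 1 or 3, or S55A replicate 1 or 2 was left out (adjusted p between 0.0602 and 0.066). In both genes the S371A libraries were the lowest or among the lowest of the 12.

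The S55A-only class was the larger, with 512 genes higher and 488 lower, and 52 of them changed by at least 1. When the effects were fitted within each table, it held 853 genes and the S371A-only class 351. NMNAT2, an enzyme of NAD synthesis known from neurons, had 11.2, 9.08 and 10.3 CPM in S371A against 10.6, 9.72 and 9.05 in WT-1, and 17.8, 17.3 and 21.3 in S55A against 4.36, 3.18 and 3.81 in WT-2. S55A stood above all other groups, but WT-2 stood below them, so the S55A rise of 2.30 ± 0.14 went with unlike wild-type groups as well as unlike mutants. The S371A effect was 0.05 ± 0.13 (95% interval -0.23 to 0.34) and the difference -2.25 ± 0.19 (adjusted p = 3.45e-05). HMCN2, hemicentin, had 6.71, 5.51 and 5.52 CPM in S371A against 5.85, 5.38 and 5.3 in WT-1, and 13.5, 13 and 9.3 in S55A against 2.58, 2.89 and 1.87 in WT-2, the same arrangement. The tetraspanin TSPAN1 (0.16 ± 0.15 in S371A and 1.49 ± 0.16 in S55A) and VILL, a relative of the microvillus protein villin (-0.12 ± 0.16 in S371A and 1.55 ± 0.17 in S55A), also rose in S55A.

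Falls in this class were led by CCDC88A, an actin and centrosome protein, and CLDN2, a claudin that makes junctions leaky to cations. CCDC88A had 17.4, 14.8 and 16.1 CPM in S371A against 19.9, 16.1 and 17.1 in WT-1, and 6.56, 4.57 and 5.92 in S55A against 20.3, 22.4 and 19.8 in WT-2. CLDN2 had 23.3, 25.5 and 23.2 CPM in S371A against 23.4, 25.1 and 24.9 in WT-1, and 3.6, 4.35 and 3.64 in S55A against 13.8, 15.2 and 13.1 in WT-2. In both, the S55A libraries were the lowest of all 12. Their differences were 1.73 ± 0.19 and 1.83 ± 0.14 (adjusted p = 0.000178 and 1.2e-05). ABCC2, an export pump for conjugated compounds, had 6.99, 5.63 and 6.58 CPM in S371A against 5.85, 6.05 and 5.25 in WT-1, and 3.65, 4.68 and 4.6 in S55A against 13.7, 14.2 and 15.8 in WT-2. Here WT-2 was the group apart from the other 3, which lay closer together.

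Every called member of the replication and mitosis lists had a higher effect in S371A than in S55A. Of 52 tested DNA replication and S phase genes, 27 had a positive difference and 0 a negative one, against 6.43% and 6.10% of all genes. In this list 34 fell in S55A and 0 rose, while 4 rose in S371A and 0 fell; 24 of the called members were S55A-only. The median effects were 0.06 in S371A and -0.42 in S55A. Of 53 mitosis and kinetochore genes, 33 were positive and 0 negative, with 19 higher and 0 lower in S371A and 22 lower and 1, RACGAP1, higher in S55A. The medians of this list were 0.25 in S371A and -0.27 in S55A. Of its members, 9 were in the opposite class, against 2 of the replication list and 1.17% of all genes. Without WT-1 replicate 3 or WT-2 replicate 1, 16 replication genes were positive, and the mitosis count stayed between 22 and 31 over all single libraries left out. Without S55A replicate 3, 21 replication genes were positive, and the median S55A effects were -0.32 for replication and -0.19 for mitosis.

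CENPE, the kinetochore motor that carries chromosomes to the spindle equator, lies at chr4:103105806-103198409 (GRCh38) and showed the largest difference of the list. It had 109, 129 and 116 CPM in S371A against 82.5, 71.8 and 67.4 in WT-1, and 20.9, 21.7 and 21.2 in S55A against 81.6, 81 and 82.1 in WT-2. The wild-type groups were close, S371A lay above both and S55A far below both. The effects were 0.67 ± 0.08 in S371A and -1.94 ± 0.08 in S55A, a difference of 2.61 ± 0.11 (adjusted p = 3.15e-07). KIF20B, a kinesin of cytokinesis, had 97.5, 102 and 97.9 CPM in S371A against 84.3, 73.6 and 69.2 in WT-1, and 25.2, 23.2 and 25.2 in S55A against 64.2, 78 and 61.7 in WT-2. The difference was 1.86 ± 0.13 (adjusted p = 8.66e-06). The spindle pole protein ASPM had 139.6, 164 and 146 CPM in S371A against 130.2, 111 and 119 in WT-1, and 62.5, 60.9 and 74.3 in S55A against 118, 126 and 122 in WT-2 (1.21 ± 0.12). CENPF, a kinetochore protein, had 512, 571 and 531 CPM in S371A against 418, 386 and 401 in WT-1, and 261, 247 and 284 in S55A against 354, 369.9 and 359.9 in WT-2 (0.87 ± 0.08). In each of these 4 genes the mutants stood on either side of the wild-type libraries. Other members of the opposite class were HMMR, a spindle protein (0.37 ± 0.06 in S371A and -0.51 ± 0.07 in S55A), the kinetochore subunits NUF2 (0.47 ± 0.10 in S371A and -0.45 ± 0.10 in S55A) and NDC80 (0.29 ± 0.07 in S371A and -0.35 ± 0.07 in S55A), the kinesin KIF23 (0.25 ± 0.06 in S371A and -0.27 ± 0.06 in S55A) and the cohesin protector SGO1 (0.31 ± 0.08 in S371A and -0.34 ± 0.08 in S55A). KNL1, the kinetochore scaffold, rose in S371A (0.73 ± 0.15 in S371A and -0.20 ± 0.15 in S55A), and SGO2, a relative of SGO1, fell in S55A (0.34 ± 0.12 in S371A and -1.02 ± 0.12 in S55A).

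Replication genes differed mainly through S55A. CLSPN, claspin, an adaptor of the replication checkpoint, had 83.3, 86.1 and 85.6 CPM in S371A against 65, 67.1 and 68.9 in WT-1, and 42.5, 40.02 and 34.3 in S55A against 64.8, 66.5 and 62.2 in WT-2. The effects were 0.34 ± 0.07 in S371A and -0.73 ± 0.07 in S55A (difference 1.07 ± 0.10, adjusted p = 7.99e-05). CDC7, the kinase that starts replication origins, had 53.6, 53.9 and 55.7 CPM in S371A against 48.8, 51.6 and 51.8 in WT-1, and 34.1, 33.7 and 32.9 in S55A against 51.5, 55.7 and 51.6 in WT-2. S371A stayed within a few CPM of WT-1 (0.10 ± 0.05) while S55A was lower (-0.66 ± 0.06). ORC6, a subunit of the origin recognition complex, had effects of 0.20 ± 0.10 in S371A and -0.81 ± 0.10 in S55A, and E2F1, the transcription factor of S phase genes, 0.14 ± 0.06 in S371A and -0.48 ± 0.06 in S55A. Both were called for the difference (adjusted p = 0.000964 and 0.000816). The same held for POLE2, a subunit of the leading-strand polymerase (0.11 ± 0.15 in S371A and -1.03 ± 0.16 in S55A), the cyclins CCNE1 (0.19 ± 0.10 in S371A and -0.59 ± 0.11 in S55A) and CCNE2 (-0.12 ± 0.11 in S371A and -0.74 ± 0.12 in S55A), PCNA, the polymerase clamp (-0.09 ± 0.09 in S371A and -0.53 ± 0.09 in S55A), and MCM4, a subunit of the replicative helicase (0.04 ± 0.09 in S371A and -0.42 ± 0.09 in S55A). CHAF1A, a histone chaperone (0.39 ± 0.08 in S371A and -0.17 ± 0.08 in S55A), and CDC6, which loads the helicase (0.27 ± 0.07 in S371A and -0.11 ± 0.07 in S55A), differed instead through a rise in S371A. Calls were lost in 11 of the 22 alternatives for CCNE2, PCNA and CDC6 and in 8 for MCM4, mostly when single libraries were left out.

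**Figure D3:**
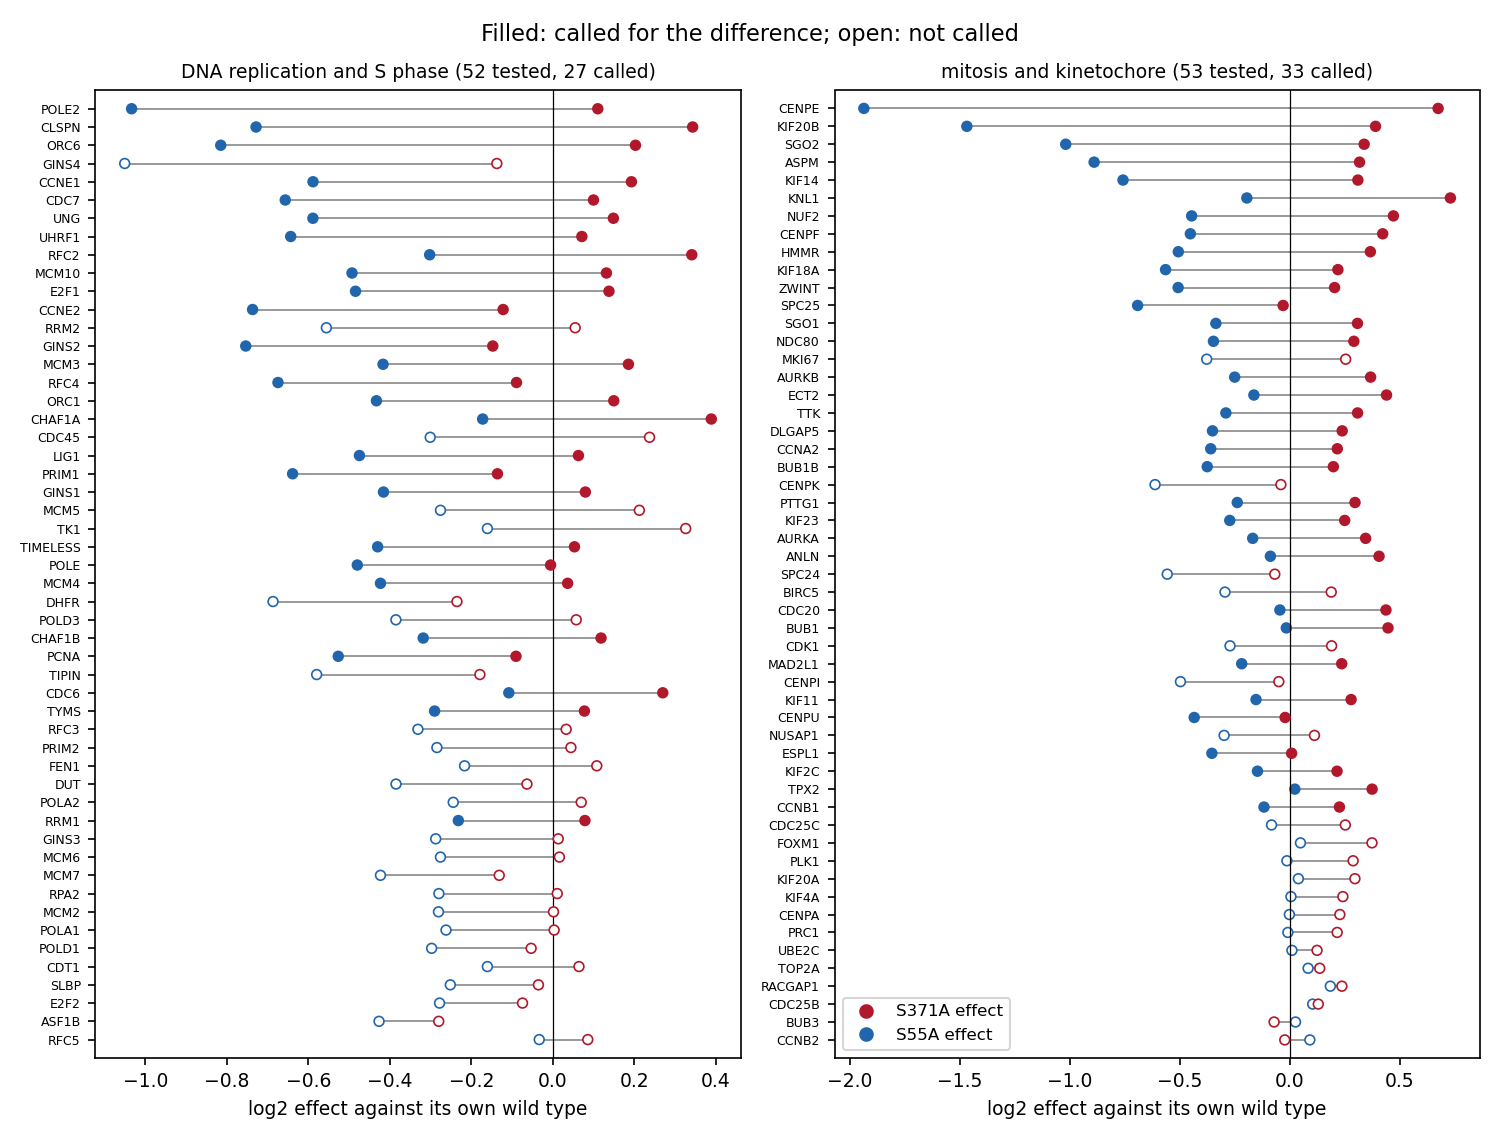
Log2 effects (horizontal axis) of the 52 replication and 53 mitosis genes, 1 gene per row, ordered by the difference; red points are S371A against WT-1 and blue points S55A against WT-2, filled where the difference was called. In the 27 and 33 called rows the red point lies right of the blue one, and CENPE and KIF20B show the widest gaps.

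Promoters of 2 replication genes are shown because they hold the motif of E2F factors, which drive S phase genes. The motif searched was TTTNNCGC, on both strands, in the window from 250 bases before to 50 after each gene's start (RefSeq, GRCh38.p14). It occurred in 6.90% of the 27305 promoters of the table and in 10.4% of the 10697 tested genes with a promoter. Among S55A-only genes that were lower, 69 of the 379 with a promoter held it (18.2%), against 15 of 170 S371A-only genes that were higher (8.82%). A match is a run of letters and not a measured binding site, and the motif was chosen with these results known. Each line gives 120 bases, with the matches in capitals.

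ORC6 (chr16:46689516-46689635, plus strand): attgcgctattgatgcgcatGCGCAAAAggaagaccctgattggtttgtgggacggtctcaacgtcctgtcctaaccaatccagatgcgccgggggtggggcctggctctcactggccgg

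E2F1 (chr20:33686408-33686527, minus strand): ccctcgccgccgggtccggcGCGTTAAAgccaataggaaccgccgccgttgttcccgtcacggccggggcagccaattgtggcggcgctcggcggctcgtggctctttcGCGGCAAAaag

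Of 34 tested centrosome and cilium scaffold genes, 15 were positive and 0 negative, with 16 lower in S55A and 3 higher in S371A. The median difference was 0.26. Over all tested genes, 6.43% were positive and 6.10% negative, 6.48% were higher in S371A and 10.1% lower in S55A. CEP290, a protein of the ciliary transition zone, had 140.1, 159 and 158 CPM in S371A against 144, 125 and 119 in WT-1, and 34.6, 31.6 and 36.7 in S55A against 103, 106 and 102 in WT-2. This gave effects of 0.24 ± 0.08 in S371A and -1.60 ± 0.08 in S55A. AKAP9, a scaffold of the centrosome and Golgi, had 310.1, 357 and 337 CPM in S371A against 247, 219 and 227 in WT-1, and 84.9, 83.1 and 97.9 in S55A against 196, 215 and 202 in WT-2. The effects here were 0.54 ± 0.08 in S371A and -1.20 ± 0.08 in S55A. Both differences were called (adjusted p = 3.8e-06 and 3.8e-06). Both genes have long transcripts of low GC content (35.9% in CEP290 and 38.2% in AKAP9, against a median of 48.4% over tested genes), and GC content moved with the difference. With an offset for GC content and length, 14 of the list were positive and 1 was negative, and the median difference was 0.21. Replication-dependent histone genes, which are transcribed in S phase, showed another pattern. Of 16 tested, 1 was positive, HIST1H2BC (0.99 ± 0.23 in S371A and -0.54 ± 0.25 in S55A), and 1 negative, HIST2H2BE (-0.02 ± 0.16 in S371A and 1.18 ± 0.17 in S55A). In that list 4 rose in S371A and 9 in S55A with none lower, and the medians of the effects were 0.61 in S371A and 0.79 in S55A. The list was low: its tested members summed to a mean of 57.1 CPM in S371A, 39.5 in WT-1, 57.9 in S55A and 31.8 in WT-2. Whether its rise reflects S phase was not tested. Of 36 nucleolar ribosome biogenesis genes, 8 were positive and 0 negative, among them LYAR (0.13 ± 0.07 in S371A and -0.49 ± 0.07 in S55A) and the helicase DDX21 (0.13 ± 0.04 in S371A and -0.28 ± 0.04 in S55A), and 15 fell in S55A. Without single WT-1 libraries, S371A replicate 2, or WT-2 replicate 1 or 3, 4 or 5 were positive. Of 55 cytosolic ribosomal protein genes, RPL30 (-0.34 ± 0.06 in S371A and -0.05 ± 0.06 in S55A) and RPL10A (-0.35 ± 0.05 in S371A and -0.06 ± 0.05 in S55A) were called, both negative, which is 3.64% of the list against 12.5% of all genes. The negative count varied between settings. It was 6 without S371A replicate 1, 5 without S55A replicate 3 and by DESeq2, and 4 without WT-2 replicate 3 and with the offset. Under a replicate block 0 were called, and the other settings gave 1 to 3 negative members. RPL30 lost its call in 11 of the 22 alternatives.

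Of 47 tested interferon-stimulated genes, 23 rose in S371A and 29 rose in S55A, against 6.48% and 11.5% of all genes, and none fell in either. The difference was positive in 14 and negative in 5, against 6.43% and 6.10% of all genes. The list's medians were 0.47 in S371A and 0.51 in S55A, and that of the difference was 0.13, against 0.003 over all tested genes. RSAD2, which encodes the antiviral enzyme viperin, had 104, 105 and 107 CPM in S371A against 15.7, 14.2 and 12.9 in WT-1, and 4.68, 6.91 and 4.23 in S55A against 3.16, 3.48 and 4.05 in WT-2. S371A lay far above WT-1, and S55A lay above WT-2 without overlap. Its effects were 2.88 ± 0.15 in S371A and 0.56 ± 0.17 in S55A, a difference of 2.32 ± 0.22 (adjusted p = 8.56e-05). IFIT1, which binds foreign RNA caps, had 494, 517 and 530.3 CPM in S371A against 97.4, 89.6 and 90.4 in WT-1, and 29.2, 27.8 and 30.8 in S55A against 17.7, 18.4 and 19.8 in WT-2. IFIT1 differed by 1.82 ± 0.09 (adjusted p = 3.53e-07). IFIT2, whose coordinates differ between the tables, had 477, 518 and 493 CPM in S371A against 75.6, 74.7 and 66 in WT-1, and 19.9, 17.3 and 19.7 in S55A against 10.9, 11.5 and 11.7 in WT-2 (2.05 ± 0.10). IFIT3 had 219, 226 and 223 CPM in S371A against 32.1, 28.4 and 27.7 in WT-1, and 9.42, 10.3 and 9.67 in S55A against 5.4, 3.55 and 5.38 in WT-2 (1.90 ± 0.16). In all 4 genes both mutants lay above their wild types, and WT-1 lay above every S55A library as well.

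The RNA sensor gene DDX58 had 243, 254 and 243 CPM in S371A against 80.4, 70.4 and 75.3 in WT-1, and 42.6, 47.3 and 43.9 in S55A against 32.3, 33.7 and 38.1 in WT-2. Its effects were 1.71 ± 0.07 in S371A and 0.36 ± 0.07 in S55A. HERC5, a ligase for the ubiquitin-like protein ISG15, had 81.9, 82.6 and 83.2 CPM in S371A against 23.5, 23.5 and 19.7 in WT-1, and 15.2, 14 and 14.4 in S55A against 11.7, 12.6 and 10.8 in WT-2, with effects of 1.89 ± 0.08 in S371A and 0.32 ± 0.09 in S55A. ISG15 itself (2.30 ± 0.10 in S371A and 0.66 ± 0.10 in S55A) and OASL, an antiviral protein (2.79 ± 0.11 in S371A and 0.97 ± 0.11 in S55A), rose in both mutants, and the sensor gene DHX58 rose in S371A (1.69 ± 0.19 in S371A and -0.01 ± 0.26 in S55A). The 5 members with negative differences, named after their values were seen, were IFI27 (-0.61 in S371A and 0.56 in S55A), IFITM1 (-0.34 in S371A and 0.82 in S55A), IFI35 (0.05 in S371A and 0.83 in S55A), SP110 (-0.14 in S371A and 0.58 in S55A) and DTX3L (0.11 in S371A and 0.49 in S55A). IFI27 passed the test in neither mutant, the other 4 rose in S55A, and leaving out single libraries brought their number as low as 2. Calls were lost in 14 of the 22 alternatives for IFI35, 10 for SP110 and 9 for IFITM1. Of 12 tested chemokine and interferon genes, 3 were called, all with a positive difference, which 6.43% of all genes had. CCL5, a chemokine for T cells, had 45.5, 43.6 and 25.9 CPM in S371A against 10.3, 10.3 and 10.6 in WT-1, and 1.71, 1.45 and 2.01 in S55A against 1.89, 2.52 and 2.06 in WT-2. CCL5 effects were 1.88 ± 0.19 in S371A and -0.31 ± 0.26 in S55A. CXCL10 had 15, 15.8 and 14.9 CPM in S371A against 2.57, 2.63 and 2.09 in WT-1, and 0.742, 0.669 and 0.898 in S55A against 0.976, 0.296 and 0.544 in WT-2, and the S55A and WT-2 libraries were all below 1 CPM. CXCL8 had 5.38, 7.02 and 8.27 CPM in S371A against 1.61, 1.04 and 1.23 in WT-1, and 0.285, 0.279 and 0.528 in S55A against 0.459, 2.74 and 0.121 in WT-2. The CXCL8 difference (3.88 ± 1.05, adjusted p = 0.0376) lost its call in 13 of the 22 alternative settings. Among the 13 were limma-voom, no filter on low counts, and the removal of any library other than WT-2 replicate 1 or 3. The T cell marker CD3E had 0 counts in all 12 libraries, and the 10 leukocyte markers summed to between 1.57 and 2.01 CPM in S371A, 0.856 and 1.77 in WT-1, 1.28 and 1.88 in S55A, and 1.78 and 2.44 in WT-2. In these bulk samples, fewer cells of a type and less RNA per cell cannot be told apart.

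Promoters of 2 interferon-stimulated genes are shown because they hold the letters of the interferon response element. It was searched as GAAANNGAAA on both strands and occurred in 3.65% of the 27305 promoters and in 2.91% of those of tested genes. Among genes with a positive difference that rose by at least 1 in S371A, 13 of the 62 with a promoter held it (20.97%). Over all genes with a positive difference it was 29 of 782 (3.71%), and over the higher S371A-only genes 6 of 170 (3.53%), near the share of tested promoters. None of the 79 opposite genes higher in S371A did, and 2 of 73 in the other direction did (2.74%). The AP-1 motif TGANTCA occurred in 4.65% of tested promoters in 5 of those 62 (8.06%) and in 4.35% of all genes with a positive difference. Both printed promoters hold 2 matches, in capitals.

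IFIT1 (chr10:89392503-89392622, plus strand): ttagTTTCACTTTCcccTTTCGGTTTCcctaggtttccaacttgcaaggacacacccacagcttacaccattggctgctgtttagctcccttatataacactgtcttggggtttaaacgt

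IFIT3 (chr10:89327821-89327940, plus strand): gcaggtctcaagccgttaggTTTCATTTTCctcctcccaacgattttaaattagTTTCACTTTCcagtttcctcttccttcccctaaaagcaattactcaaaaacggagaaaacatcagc

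Of 21 antigen presentation genes, 0 were positive and 4 negative, against 6.43% and 6.10% of all genes. CD74, the invariant chain of MHC class II, rose in both mutants (1.49 ± 0.17 in S371A and 2.94 ± 0.20 in S55A), and HLA-B, whose coordinates differ between the tables, rose in S55A (0.14 ± 0.06 in S371A and 0.79 ± 0.07 in S55A). The remaining 2, CALR and CANX, also belong to the chaperones of the endoplasmic reticulum given below.

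Junction and intestinal lineage genes tended to have the lower effect in S371A. Of 39 tested epithelial junction genes, 15 had a negative and 2 a positive difference, against 6.10% and 6.43% of all genes; 24 were higher and 2 lower in S55A, and 6 higher and 3 lower in S371A. Without S371A replicate 3, 9 junction genes were negative. Of 30 intestinal lineage genes, 9 were negative and 2, SOX9 and ALPP, positive. KRT20, a keratin of intestinal and ductal surface cells, lies at chr17:40875941-40885227 (GRCh38) and had a difference further below 0 than any other named gene. It had 68.9, 66.5 and 64.8 CPM in S371A against 89.6, 86.5 and 84.7 in WT-1, and 248, 250.2 and 205 in S55A against 29.3, 28.2 and 33.1 in WT-2. S371A fell a little below WT-1 while S55A stood several-fold above WT-2, and the wild-type groups differed too, with WT-1 above WT-2. The effects were -0.38 ± 0.08 in S371A and 2.95 ± 0.09 in S55A, a difference of -3.34 ± 0.12 (adjusted p = 5.64e-08). PHGR1, a short protein of gut epithelium, had 3.91, 4.12 and 3.95 CPM in S371A against 6.0, 5.81 and 5.57 in WT-1, and 34.5, 33.3 and 18 in S55A against 5.97, 5.4 and 5.62 in WT-2. WT-1 and WT-2 lay at the same level, and S55A replicate 3 lay well below the other S55A libraries. Its difference was -2.87 ± 0.30 (adjusted p = 0.000152).

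ELF3, an epithelial transcription factor, had 43.4, 39 and 35.1 CPM in S371A against 51.3, 57.2 and 51.7 in WT-1, and 70.2, 64.5 and 64.1 in S55A against 40.1, 37.6 and 40.8 in WT-2. PRSS8, the membrane protease prostasin, had 49.6, 34.5 and 41.1 CPM in S371A against 35.2, 34.5 and 31.3 in WT-1, and 65.6, 62.5 and 53.2 in S55A against 19.4, 15.9 and 16.6 in WT-2. DSC2, a desmosomal cadherin, had 73.6, 74.9 and 75.6 CPM in S371A against 89, 84.9 and 86 in WT-1, and 73.6, 71.7 and 70.04 in S55A against 52.5, 53.8 and 52.2 in WT-2. S55A was above WT-2 in all 3 genes, and S371A was below WT-1 in ELF3 and DSC2 but overlapped it in PRSS8. Their differences were -1.19 ± 0.12, -1.49 ± 0.18 and -0.66 ± 0.06 (adjusted p = 8.56e-05, 0.000458 and 0.000105). CDH1, the cadherin of epithelial contacts (-0.22 ± 0.16 in S371A and 0.66 ± 0.17 in S55A), the claudins CLDN3 (-0.14 ± 0.09 in S371A and 0.85 ± 0.09 in S55A), CLDN7 (-0.23 ± 0.15 in S371A and 0.68 ± 0.15 in S55A) and CLDN1 (-0.24 ± 0.10 in S371A and 0.66 ± 0.10 in S55A), and occludin, OCLN (0.09 ± 0.11 in S371A and 0.70 ± 0.11 in S55A), rose in S55A. The positive members of the junction list were CLDN2 and EPCAM (0.23 ± 0.04 in S371A and 0.02 ± 0.04 in S55A). AGR2, a disulfide isomerase of mucus-secreting cells, was S55A-only (-0.16 ± 0.07 in S371A and 0.74 ± 0.07 in S55A), and TFF3, a trefoil factor, rose in S55A (0.14 ± 0.18 in S371A and 1.48 ± 0.19 in S55A). LGALS4, a galectin of gut epithelium, fell in S371A (-1.25 ± 0.23 in S371A and 0.06 ± 0.24 in S55A). ALPP, placental alkaline phosphatase, was lower in both mutants and more so in S55A (-0.51 ± 0.10 in S371A and -2.17 ± 0.10 in S55A), and 25.3% of its windows are shared, chiefly with ALPG. Of 12 keratins, KRT17 and KRT5 were positive and KRT20 and KRT80 (0.17 ± 0.09 in S371A and 1.04 ± 0.09 in S55A) negative. KRT5 was below 1 CPM in every library. Of 10 mucin and trefoil genes, MUC20 (0.06 ± 0.16 in S371A and -0.73 ± 0.16 in S55A; 54.1% of windows shared) was positive, and MUC5B (-2.27 ± 0.28 in S371A and -0.80 ± 0.25 in S55A) and TFF3 were negative. Among 17 S100 and annexin genes, ANXA1 (0.59 ± 0.07 in S371A and -1.02 ± 0.07 in S55A) and ANXA3 (0.76 ± 0.06 in S371A and -0.28 ± 0.06 in S55A), membrane-binding proteins, were positive and opposite in direction to S100P. S100A14 (-0.58 ± 0.11 in S371A and 0.17 ± 0.11 in S55A) and ANXA4 (-0.01 ± 0.07 in S371A and 0.36 ± 0.07 in S55A) were the other negative ones. Calls were lost in 17 of the 22 alternatives for EPCAM, 13 for MUC20, 10 for CDH1 and ANXA4, 8 for OCLN and KRT5, 7 for LGALS4 and 6 for MUC5B.

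**Figure D4:**
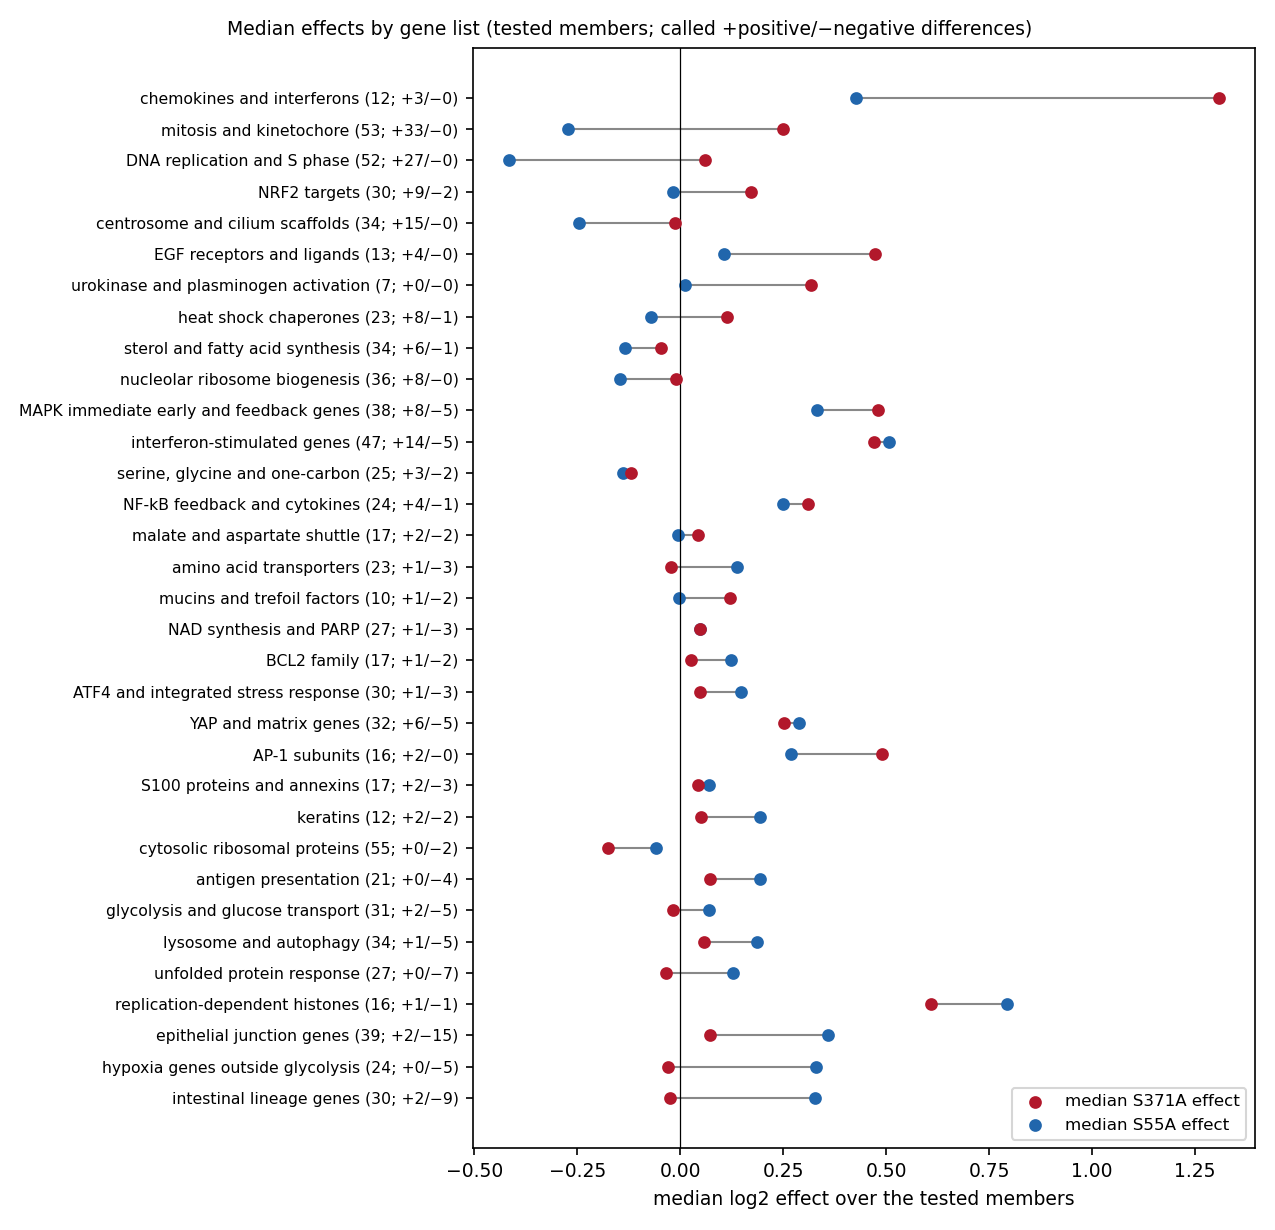
Median log2 effect over the tested members of each gene list (horizontal axis), red for S371A over WT-1 and blue for S55A over WT-2, ordered by the median difference; labels give the members tested and those called with a positive and a negative difference. S371A lies to the right for the chemokine, mitosis and replication lists at the top, and S55A to the right for the intestinal, hypoxia and junction lists at the bottom.

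Targets of NRF2 and heat shock chaperones included members with the higher effect in S371A, and chaperones of the endoplasmic reticulum members with the lower. Of 30 NRF2 targets, which protect against oxidation, 9 were positive and 2 negative, against 6.43% and 6.10% of all genes. GCLM, a subunit of the enzyme that limits glutathione synthesis, had 76.7, 81.1 and 89.2 CPM in S371A against 51.4, 54.7 and 50.3 in WT-1, and 101, 96.4 and 110.0 in S55A against 93, 96.1 and 93 in WT-2. Its S371A libraries stood above WT-1 while S55A lay just above WT-2. Its partner subunit GCLC (0.85 ± 0.11 in S371A and -0.01 ± 0.11 in S55A) and glutathione reductase, GSR (0.40 ± 0.05 in S371A and -0.03 ± 0.05 in S55A), rose in S371A. SRXN1, sulfiredoxin, rose in both (0.78 ± 0.07 in S371A and 0.24 ± 0.07 in S55A), with 84.7% of its windows shared. HMOX1, heme oxygenase, also rose in both (1.07 ± 0.11 in S371A and 0.54 ± 0.11 in S55A), and NQO1, a quinone reductase, fell in S55A (0.18 ± 0.08 in S371A and -0.37 ± 0.08 in S55A). The 2 negative members were CBR3 (0.14 ± 0.19 in S371A and 1.10 ± 0.20 in S55A) and the ferritin chain FTH1 (0.03 ± 0.14 in S371A and 0.73 ± 0.14 in S55A). They lost the call in 13 and 12 of the 22 alternatives, and 0 members were negative in the unfiltered and blocked fits and without S371A replicate 1, WT-1 replicate 1 or 2, S55A replicate 1 or 2, or any WT-2 library. HMOX1 lost its call in 12. Of 23 heat shock chaperones, 8 were positive and 1, DNAJA4 (0.82 ± 0.09 in S371A and 1.29 ± 0.10 in S55A), negative, with the call of DNAJA4 lost in 10. The co-chaperones DNAJB4 (0.66 ± 0.12 in S371A and -0.09 ± 0.12 in S55A) and CHORDC1 (0.40 ± 0.09 in S371A and -0.17 ± 0.09 in S55A) were S371A-only, and HSP90AA1, an inducible chaperone of kinases and receptors, fell in S55A (0.11 ± 0.08 in S371A and -0.35 ± 0.08 in S55A; call of the difference lost in 6). The positive count was 3 without WT-1 replicate 2, and 4 or 5 without another WT-1 library, S55A replicate 2, or WT-2 replicate 1 or 3. The unfolded protein response list gave 0 positive and 7 negative members of 27. In the whole list 7 fell in S371A and 11 rose in S55A, against 4.73% and 11.5% of all genes. Without WT-1 replicate 1 or 3 or S55A replicate 2, 4 were negative. PDIA4, a disulfide isomerase, had 2989, 2781 and 2944 CPM in S371A against 4053, 4075 and 4104 in WT-1, and 3493, 3355 and 3275 in S55A against 3435, 3236 and 3395 in WT-2. All its S371A libraries were below WT-1, while S55A overlapped WT-2. PDIA3 (-0.37 ± 0.04 in S371A and 0.13 ± 0.04 in S55A), CALR (-0.34 ± 0.05 in S371A and 0.09 ± 0.05 in S55A) and CANX (-0.27 ± 0.04 in S371A and 0.09 ± 0.04 in S55A), which help proteins to fold, also fell in S371A. ATF4 is a transcription factor of the response to amino acid shortage. Of 30 of its targets and other integrated stress response genes, 1, GDF15 (0.77 ± 0.07 in S371A and 0.28 ± 0.07 in S55A), was positive, and 3 were negative: NUPR1 (-1.05 ± 0.17 in S371A and 0.22 ± 0.17 in S55A), ADM2 (0.10 ± 0.05 in S371A and 0.76 ± 0.05 in S55A) and SLC3A2 (-0.06 ± 0.04 in S371A and 0.22 ± 0.04 in S55A). These 4 are 13.3% of the list, near the 12.5% of all genes.

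Of 24 hypoxia genes outside glycolysis, 0 were positive and 5 negative, against 6.43% and 6.10% of all genes. P4HA2, a collagen prolyl hydroxylase, had 55.3, 55.9 and 58.7 CPM in S371A against 67.1, 71.3 and 70.2 in WT-1, and 66.1, 60.5 and 67.8 in S55A against 43.4, 38.3 and 40.5 in WT-2. The groups did not overlap in either experiment and moved in opposite directions (-0.96 ± 0.09, adjusted p = 7.63e-05). CA9, carbonic anhydrase, was low, at 0.699, 0.908 and 1.38 CPM in S371A against 3.63, 2.75 and 2.25 in WT-1, and 2.4, 2.34 and 1.8 in S55A against 1.61, 1.11 and 0.847 in WT-2. BHLHE40, a repressor of the circadian clock, rose in both (0.41 ± 0.08 in S371A and 0.91 ± 0.08 in S55A), and EGLN1, an oxygen sensor, rose in S55A (-0.10 ± 0.07 in S371A and 0.23 ± 0.07 in S55A). NDRG1 (-0.32 ± 0.22 in S371A and 0.94 ± 0.22 in S55A) lost its call in 9 of the 22 alternatives. Between 3 and 8 members were negative when single libraries were left out. Of 31 genes of glycolysis and glucose transport, 2, SLC2A1 and SLC2A3 (0.57 ± 0.10 in S371A and 0.08 ± 0.10 in S55A), were positive and 5 negative. The negative count was 2 without S55A replicate 1 or WT-2 replicate 2 and 3 without any S371A library, WT-1 replicate 1 or S55A replicate 2. The glucose transporter gene SLC2A1 had 959.5, 880.0 and 964 CPM in S371A against 598, 623 and 540.1 in WT-1, and 829, 865 and 705 in S55A against 994, 658 and 976 in WT-2. WT-2 replicate 2 stood well below the other libraries of its group, and the call (adjusted p = 0.0261) was lost in 10 of 22 alternatives. SLC16A3, the lactate exporter, had 8.87, 6.48 and 8.02 CPM in S371A against 9.98, 9.72 and 9.69 in WT-1, and 12.9, 11.8 and 8.98 in S55A against 4.76, 2.89 and 3.93 in WT-2, again without overlap in either experiment. PGK1, which makes the substrate of PHGDH, had effects of -0.17 ± 0.07 in S371A and 0.26 ± 0.07 in S55A. HK2, a hexokinase (0.30 ± 0.06 in S371A and 0.62 ± 0.06 in S55A), ALDOC, an aldolase (-0.73 ± 0.23 in S371A and 0.56 ± 0.23 in S55A), and the transporter SLC2A12 (0.32 ± 0.24 in S371A and 2.34 ± 0.26 in S55A) were the other negative ones. Calls of the difference were lost in 13 of the 22 alternatives for EGLN1, 12 for SLC2A3, 11 for HK2 and 9 for ALDOC.

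In the pathway of PHGDH itself, 5 of 25 tested serine, glycine and folate genes were called, 3 positive and 2 negative, against 12.5% of all genes. The list had 3 genes lower in S371A, and 1 higher and 4 lower in S55A, and the medians of the effects were -0.12 in S371A and -0.14 in S55A. ALDH1L1, which oxidises formyl-tetrahydrofolate, had 89, 93.3 and 99.97 CPM in S371A against 125, 128 and 131 in WT-1, and 175, 151 and 139 in S55A against 109, 91.4 and 107 in WT-2. It fell in S371A and rose in S55A, without overlap in either experiment (-1.04 ± 0.13, adjusted p = 0.000409). MAT2A, which makes S-adenosylmethionine, fell in both (-0.29 ± 0.06 in S371A and -0.60 ± 0.06 in S55A). MAT2A and MTHFD1 (0.14 ± 0.06 in S371A and -0.14 ± 0.06 in S55A) lost the call in 12 of 22 alternatives each. Another called member, TYMS, thymidylate synthase, is also a replication gene (0.08 ± 0.07 in S371A and -0.29 ± 0.07 in S55A), and its call was lost in 10. Of 27 NAD and PARP genes, NAMPT (0.24 ± 0.05 in S371A and -0.01 ± 0.05 in S55A) was positive, and NMNAT2, SIRT2 (-0.10 ± 0.09 in S371A and 0.50 ± 0.09 in S55A) and TNKS (0.00 ± 0.07 in S371A and 0.35 ± 0.07 in S55A) were negative, 14.8% of the list and near the background of 12.5%. The call was lost in 11 of the 22 alternatives for NAMPT and in 8 for TNKS. NAMPT, NMNAT2 and the sirtuin SIRT2 make or use NAD.

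In each of the remaining 5 lists, 3 to 7 members were called, 17.4% to 23.5% of those tested against 12.5% of all genes. The malate and aspartate shuttle list had 2 positive members, among them the glutamate transporter SLC1A3 (1.63 ± 0.31 in S371A and -0.87 ± 0.32 in S55A), and 2 negative, the malic enzyme ME2 (-0.55 ± 0.10 in S371A and -0.08 ± 0.10 in S55A) and the aminotransferase GOT1 (0.02 ± 0.05 in S371A and 0.26 ± 0.05 in S55A), of 17. ME2 lost its call in 13 and GOT1 in 14 of the 22 alternatives. Both were lost by limma-voom, under a replicate block, and without any S371A library, WT-1 replicate 3, S55A replicate 1 or 2, or WT-2 replicate 3. Amino acid transporters had 1 positive, SLC1A3, and 3 negative, SLC7A2, SLC3A2 and SLC38A10 (-0.05 ± 0.05 in S371A and 0.30 ± 0.05 in S55A), of 23. SLC7A2, a cationic amino acid transporter, had 6.99, 9.75 and 9.21 CPM in S371A against 55.4, 28.4 and 29.995 in WT-1, and 15.1, 12.7 and 33.3 in S55A against 20.6, 21.8 and 20.3 in WT-2. WT-1 replicate 1 and S55A replicate 3 stood above the rest of their groups, and the call was lost in 10 of 22 alternatives. Sterol and fatty acid synthesis had 6 positive, among them the desaturase FADS2 (0.86 ± 0.19 in S371A and -0.04 ± 0.19 in S55A) and the elongase ELOVL6 (-0.05 ± 0.08 in S371A and -0.63 ± 0.08 in S55A), and 1 negative, FADS1 (-0.49 ± 0.07 in S371A and 0.08 ± 0.07 in S55A), of 34, and 3 were positive without S371A replicate 1, any WT-1 library, or S55A replicate 1 or 3. Without S55A replicate 3, 4 were negative. FADS2 lost its call in 16 alternatives. Lysosome and autophagy genes had 1 positive, GLA (0.30 ± 0.11 in S371A and -0.30 ± 0.11 in S55A; call lost in 7), and 5 negative, among them the autophagy receptor OPTN (0.31 ± 0.08 in S371A and 0.997 ± 0.08 in S55A), of 34. In the BCL2 family of 17, BCL2, which protects against cell death, was positive (-0.20 ± 0.18 in S371A and -1.47 ± 0.19 in S55A), and BIK, which promotes it (-0.04 ± 0.14 in S371A and 0.73 ± 0.13 in S55A), and BCL2L14 (-0.68 ± 0.13 in S371A and 0.51 ± 0.14 in S55A) were negative.

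Some of the largest differences rested on uneven libraries. TGOLN2, a Golgi protein, had 49.5, 144 and 46.2 CPM in S371A against 179, 46.4 and 181 in WT-1, and 133, 205 and 163 in S55A against 35.2, 31.7 and 38.6 in WT-2. S371A and WT-1 overlapped. S371A replicate 2 and WT-1 replicate 2 stood apart from their groups. The difference (-3.01 ± 0.80, adjusted p = 0.0404) lost the call in 13 of the 22 alternatives, 10 of them single libraries left out. ZNF286A had 19.6, 14.9 and 12.8 CPM in S371A against 35, 16.8 and 36.2 in WT-1, and 42.7, 20.4 and 45.7 in S55A against 15.8, 16.7 and 12.3 in WT-2. It shares 61% of its windows, chiefly with ZNF286B, and lost the call in 8. BTBD3 had 21.8, 41.6 and 24.2 CPM in S371A against 21.5, 27.2 and 18.7 in WT-1, and 18.5, 19.3 and 13.8 in S55A against 52.4, 52.5 and 50.3 in WT-2. TMCC3 had 23.1, 22.7 and 27.8 CPM in S371A against 30.1, 28.6 and 28.1 in WT-1, and 78.4, 79.4 and 52.8 in S55A against 20.4, 21.1 and 22.1 in WT-2. Both kept their calls in all 22, as did ZNF845 (0.68 ± 0.21 in S371A and -1.34 ± 0.23 in S55A).

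GC content moved with the difference. Over the tested genes with a GENCODE 29 transcript (99.6%), the Spearman coefficient of transcript GC content was -0.08 with the S371A effect, 0.13 with the S55A effect and -0.17 with their difference; genes are not independent points and no p is given. The genes were split into 5 bins of equal size by GC content. In the lowest bin (median 38.7%), 10.9% had a positive and 3.91% a negative difference, and in the highest (median 61.4%) 3.34% had a positive and 9.36% a negative one. Opposite genes that were higher in S371A had a median GC content of 42.8%, those lower in S371A 52.8%, and all tested genes 48.4%. An offset per library for GC content and length was chosen after the data were seen and fitted to these same libraries. It was built to remove a link with GC content, whatever its source, so a coefficient near 0 (-0.01) was fixed in advance. With it 2167 genes were called, 1830 of them among the 2087. Under this offset the replication list had 28 positive and 0 negative members, the mitosis list 30 and 0, the centrosome list 14 and 1, the interferon list 14 and 4, and the junction list 1 and 15. Transcript length correlated with the difference by -0.02.

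**Figure D5:**
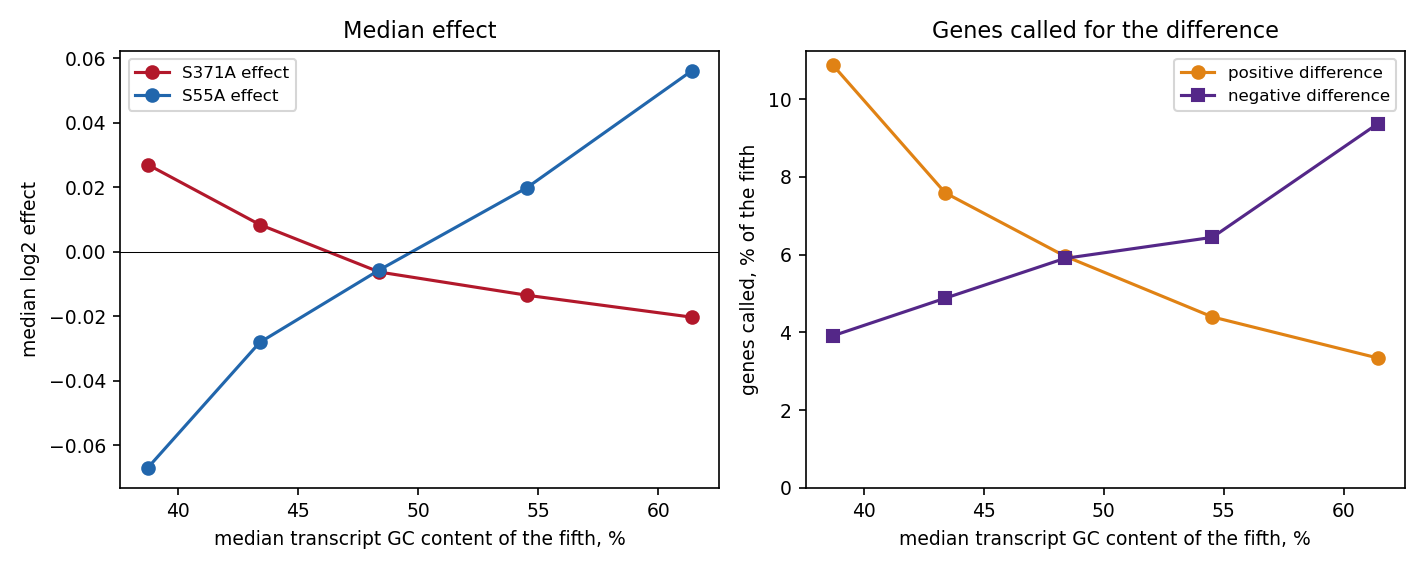
Genes in 5 bins of transcript GC content (horizontal axis, median of each bin in percent), with the median log2 effects of S371A (red) and S55A (blue) on the left and the percentage of each bin called with a positive (orange) or negative (purple) difference on the right. Positive calls make up 10.9% of the lowest bin and 3.34% of the highest, negative calls 3.91% and 9.36%.

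The libraries were of like depth, with total counts between 13667033 and 19240270, and replicates of a group had Spearman coefficients of 0.988 to 0.992. All 12 pancreatic duct and adenocarcinoma markers were tested. Their summed level lay between 5935 and 6859.6 CPM in S371A, 5087 and 5525 in WT-1, 4746 and 5059.6 in S55A, and 3481 and 3773 in WT-2, higher in each mutant than in its wild type, and CDH1, EPCAM, SOX9 and KRT17 were called for the difference, although EPCAM lost its call in 17 of the 22 alternatives. Of 60 markers of other cell types, 16 were tested, and those called were the fibroblast marker PDGFRB, the hepatocyte marker ALB (0.21 ± 0.22 in S371A and -1.06 ± 0.19 in S55A) and the acinar marker BHLHA15 (0.34 ± 0.07 in S371A and 0.70 ± 0.07 in S55A; call lost in 10 of 22). Over all tested genes, 12.5% were called for the difference, against 33.3% of the duct and adenocarcinoma markers. The 10 fibroblast markers summed to between 22.4 and 23.4 CPM in S371A, 37.0 and 39.4 in WT-1, 28.0 and 44.3 in S55A, and 22.9 and 32.4 in WT-2, and their part in the results was not tested. The 10 neuron markers summed to between 62.0 and 185 CPM in S371A, 50.9 and 75.0 in WT-1, 45.8 and 66.5 in S55A, and 55.8 and 89.2 in WT-2, with NEFL and SNAP25 at 0 in all libraries. Of the other marker lists, those of the endothelium, hepatocytes and acinar cells summed to at most 43.1 CPM in every library, with EMCN, KDR, TIE1, APOB, TTR and 5 acinar genes at 0 throughout.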

How the data were processed

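Total RNA from 12 libraries was sequenced, 3 each of S371A, WT-1, S55A and WT-2. The authors deposited raw read counts per gene in 2 tables, the first with S371A and WT-1 and the second with S55A and WT-2; FPKM columns beside the counts were not used here. Tools listed without a role in the submitters' processing notes are edgeR, StringTie 1.3.0, HISAT2 2.0.4 and CASAVA; mm10 stands beside GRCh38 among the builds. Strand use in counting is not stated. The tables list 58302 and 50868 genes, and 97.4% of the 50356 shared ones have the same coordinates; genes were joined by identifier, not symbol. Within each table, a column's suffix was read as the replicate number and WT as that table's wild type.

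The joined counts were fitted with edgeR 4.0.16 in R 4.3.3: TMM factors over all libraries, filterByExpr, a robust quasi-likelihood fit of the 4 groups, and F tests of each mutant against its wild type and of the difference between the effects. Every adjusted p in the text is Benjamini-Hochberg over the 16666 tested genes, each SE is the fold change over the root of F, and calls use 0.05. The step was tested on simulated counts with the same spread for every gene, the same baseline in all groups and a single size of change. That simulation does not cover uneven libraries, unlike wild-type levels or smaller effects. Total counts of 13667033 to 19240270 per library and a biological coefficient of variation of 13.9% limit the precision. Alternatives were other scalings, DESeq2 1.42.0, limma-voom 3.58.1, other filters, fits within each table, genes with the same coordinates, a replicate block, a bound of 0.3 in place of 0.5, and single libraries left out; the offset for GC content and length was added after the data were seen.

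Genes named by size, at a mean of at least 5 CPM, were the 12 with the largest difference in each direction. The same limit held for the 12 opposite genes with the largest smaller effect and the 8 genes of each bounded class with the largest effect. Up to 4 called members of each gene list were named by p, without a limit on CPM. Members named to spell out counts of 5 or fewer, and others not under these rules, were chosen after their values were seen. Some list members are counted but not reported here by name. The gene lists, the motifs and the contrast were chosen with earlier results of these data known. Shared windows are 50-base stretches of a gene's transcripts that also occur in another gene's. Replicate numbers were not used to pair the libraries in the main fit.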

Additional observations from a re-analysis of the deposited data

Results flagged for a closer look

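The difference between the S371A and S55A effects passed the edgeR test of the difference itself in 2087 genes, and in 195 of them the effects were called with opposite signs. Every one of these is a case in which the same contrast, mutant against wild type, gave unequal effects in the 2 experiments, and mutant and experiment cannot be told apart in any of them.

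Among the 12 opposite genes with the largest smaller effect, the difference was positive for ZNF664 (3.81), NRP1 (2.70), UGT1A1 (1.86) and CADPS (1.79). It was negative for S100P (-2.39), CD177 (-2.37), EEF1A2 (-2.32), ANO7 (-1.94), VPS37D (-1.60), KCNK5 (-1.53), ESPN (-1.47) and PARVG (-1.46). All 12 kept their call for the difference under all 22 alternative settings. Whether both effects of each gene also stayed called with opposite signs was not checked. ZNF664 had uneven libraries, with S55A replicate 3 apart from the other S55A libraries, and UGT1A1 and CD177 share part of their sequence with neighbouring genes. Groups of 3 libraries were too small to test single libraries as outliers.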

How the results depend on the processing

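The number of genes called for the difference lay between 1707 (no filter on low counts) and 2277 (DESeq2) under the scalings, tools and filters tried, against 2087, and the share of calls that were positive stayed between 47.4% and 52.0% over all settings. Of 4084 recomputed values over the 186 genes given with values, 3609 kept their sign and their side of the threshold and 473 lost the call, in 53 genes, while PHGDH gained it once. RACGAP1, which was not called, changed sign without S55A replicate 3 (-0.00789 to 0.0872 over the single libraries left out); no other of these genes did. With a stricter bound of 0.3 on the other effect, the S371A-only class held 188 genes and the S55A-only class 559. Fits within each table gave 2037 calls for the S371A effect and 2496 for the S55A effect. There the opposite class held 139 genes, the S371A-only class 351 and the S55A-only class 853. The calls for the difference in these classes were still those of the joint fit. Upper quartile scaling turned the balance of S371A calls to 914 higher and 961 lower, and of S55A calls to 1735 higher and 1901 lower; the cause was not tested.

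With single libraries left out, calls ranged from 1407 to 2257 for the difference, 978 to 2175 for the S371A effect and 2699 to 3533 for the S55A effect. The opposite class ranged from 96 to 247 genes, the S371A-only class from 182 to 431 and the S55A-only class from 661 to 1176. The highest of each of these counts came without S55A replicate 3. The S371A effect count and the opposite class moved by over 1.5 times without S371A replicate 2 or 3 or any WT-1 library, the S371A-only class also without WT-2 replicate 1, and the S55A-only class without WT-1 replicate 1 or 3. Fewer libraries were fitted in each of these cases.

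Same-numbered libraries did not deviate together (Pearson r of -0.056 to 0.041 across genes). A pairing that touched few genes would not show in these values, so they cannot settle whether the numbers pair the libraries. With the replicate number as a block within each experiment, 1098 genes were called for the difference, 970 for S371A, 86 as opposite, 144 as S371A-only and 521 as S55A-only; the S55A effect had 2614. Under the block, 20 replication, 23 mitosis and 9 centrosome genes were positive.

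Depth limits the statements on genes near 1 CPM, such as CXCL8, CXCL10, KRT5 and CA9. The 4 groups share no library, and no setting can separate the substitutions from the experiments.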
